A study of Mus musculus with 503 samples.

Results

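Matricellular and adhesive glycoproteins are secreted proteins that bind cell surface receptors and the surrounding matrix. This group was examined across its 9 genes, taken by symbol from the 56701 gene rows of the count table: *Tnc*, *Postn*, *Spp1*, *Thbs1*, *Thbs2*, *Sparc*, *Sparcl1*, *Fn1* and *Vtn*. All 9 symbols were found, and each had counts in every group and on every plate. The cells came from the spinal cord of GLAST-CreERT2;R26R-tdTomato;Pdgfrb-eGFP mice, and every group carried all 3 alleles. The labels give all mice as female, and the study's methods state that crush lesions were made in females only. Its reporting summary instead names both sexes for the sequencing experiments. In these mice tamoxifen switches on tdTomato in cells in which the promoter of GLAST (*Slc1a3*, a glutamate transporter) is active, which in the cord includes astrocytes, and the *Pdgfrb* promoter drives EGFP in mural cells (pericytes and vascular smooth muscle cells, or vSMCs) and in fibroblasts. EGFP+ cells with or without tdTomato were sorted singly into plates, from uninjured cord or from the lesioned segment at 3 days after a complete spinal crush, and were sequenced by Smart-seq3, a full-length single-cell RNA method.

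After filtering, 137 tdTomato+EGFP+ and 106 tdTomato-EGFP+ cells remained from uninjured cord and 122 and 103 from injured cord, with 25645409 to 38406035 counts in total per group. No animal is named for any cell, so each group is 1 sample, and no p-value or standard error was computed. The uninjured cells lie on plates 209 and 213 and the injured ones on 211 and 215, so plate and injury cannot be told apart, while both sorted populations lie on every plate. Values per plate are given as the technical spread. The 34 injured tdTomato+EGFP+ cells of plate 215 stand apart by a median of 14770 counts per cell, against 328802 in the 88 cells of plate 211, which holds 94.6% of the counts of that group. Plate 211 also lacks 224 gene symbols that every other plate has at 10 CPM (counts scaled to a total of 1000000) or more and alone holds 214 others, for example *Sept9* in place of *Septin9*, but no gene of the group or of the lists below is among them. All 9 pericyte and all 9 perivascular fibroblast markers had counts in every group. In injured tdTomato+EGFP+ cells, 9 pericyte markers summed to 381 CPM, against 6847 to 9113 CPM in the other groups, and 9 perivascular fibroblast markers summed to 22150 CPM, against 2339 to 9885 CPM.

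Matricellular proteins such as tenascin-C (*Tnc*), periostin (*Postn*), osteopontin (*Spp1*), the thrombospondins (*Thbs1*, *Thbs2*) and SPARC modulate how cells adhere to and signal through the matrix, and many of them are produced during wound repair and fibrosis. Fibronectin (*Fn1*) and vitronectin (*Vtn*) are adhesive: both carry an RGD motif that integrins bind, and so does osteopontin. Fibronectin assembles into an early wound matrix, SPARC binds collagen, and *Sparcl1* (hevin) is a SPARC relative known in the nervous system for a role in synapse formation. *Vtn* is a widely used pericyte transcript in the central nervous system.

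The genes lie on 7 chromosomes of GRCm38.p6 (RefSeq), with *Spp1* (chr5:104435111-104441053) and *Sparcl1* (chr5:104079108-104114088) near each other and *Sparc* (chr11:55394159-55420080) and *Vtn* (chr11:78499120-78502325) on another. The others are *Tnc* (chr4:63959785-64047015), *Postn* (chr3:54359267-54391041), *Thbs1* (chr2:118111876-118127133), *Thbs2* (chr17:14665500-14694262) and *Fn1* (chr1:71585473-71653280). RefSeq promoter windows were on hand for 6 genes (*Tnc*, *Postn*, *Spp1*, *Thbs2*, *Sparc*, *Vtn*) and not for *Thbs1*, *Sparcl1* and *Fn1*. The 100 bases before the start are printed here for *Tnc* and *Spp1*, which had the largest injury differences of the 9 genes in both populations, for *Postn*, next after them in tdTomato-EGFP+ cells, and for *Vtn*, the lowest in tdTomato+EGFP+ cells. *Tnc*, *Spp1* and *Postn* each have 2 listed starts. Capitals mark matches to the core promoter pattern TATANA, searched on both strands.
Tnc start 1, chr4:64047016-64047115, minus strand: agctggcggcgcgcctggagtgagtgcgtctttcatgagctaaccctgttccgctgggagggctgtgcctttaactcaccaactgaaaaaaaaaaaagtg
Tnc start 2, chr4:64046937-64047036, minus strand: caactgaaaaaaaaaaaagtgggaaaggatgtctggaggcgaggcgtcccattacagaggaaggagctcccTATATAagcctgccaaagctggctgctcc
Postn start 1, chr3:54359167-54359266, plus strand: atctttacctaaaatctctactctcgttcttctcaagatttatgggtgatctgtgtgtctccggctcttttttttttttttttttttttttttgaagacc
Postn start 2, chr3:54361007-54361106, plus strand: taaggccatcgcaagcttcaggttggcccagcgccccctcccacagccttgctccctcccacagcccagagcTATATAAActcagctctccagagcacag
Spp1 start 1, chr5:104435011-104435110, plus strand: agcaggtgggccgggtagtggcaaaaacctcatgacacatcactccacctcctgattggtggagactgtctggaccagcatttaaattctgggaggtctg
Spp1 start 2, chr5:104436092-104436191, plus strand: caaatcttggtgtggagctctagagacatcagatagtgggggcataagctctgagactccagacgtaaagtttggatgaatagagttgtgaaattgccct
Vtn, chr11:78499020-78499119, plus strand: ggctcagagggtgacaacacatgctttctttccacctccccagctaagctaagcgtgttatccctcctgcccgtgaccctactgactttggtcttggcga
Of the 9 windows of the 6 genes, the pattern stands in 2 over these 100 bases, the second start of *Tnc* and of *Postn*, and 9.48% of all 32851 promoter windows hold it there. Over 250 bases, 7 of the 9 windows hold it, against 22.6% of all. The AP-1 pattern TGANTCA stands in 0 of the 9 over 250 bases, and in 6.75% of all windows. The counts are per gene and do not say which start was used.

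For each group the counts of its cells were added up and expressed as CPM, and groups were compared by the difference of log2(CPM + 1), which understates the change of genes near 1 CPM. A sum does not tell fewer cells with a gene from less of it per cell, so values per cell are given beside it. A gene was called where it reached 10 CPM in the higher group, differed by 1 or more on that scale and went the same way on both plates (for the sort) or in all 4 pairings of injured with uninjured plates (for injury). Together the 9 genes held 0.972% of all counts in uninjured tdTomato+EGFP+ cells and 0.971% in uninjured tdTomato-EGFP+ cells, against 3.33% and 1.77% after injury. The gene with the most counts was *Vtn* in uninjured tdTomato+EGFP+ cells and *Sparcl1* in uninjured tdTomato-EGFP+ cells. After injury it was *Spp1* in tdTomato+EGFP+ cells and *Sparc* in tdTomato-EGFP+ cells, where each ranked 1 among all genes by summed counts. *Spp1* held that rank on both injured plates and *Sparc* on plate 215 only, being at rank 4 on plate 211.

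After injury, all 9 genes were called in tdTomato+EGFP+ cells, 7 higher and 2 lower (*Sparcl1* and *Vtn*). Of the 11429 genes at 10 CPM or more, 10.8% were called higher and 34.3% lower in the same comparison. In tdTomato-EGFP+ cells, 6 were called higher (*Tnc*, *Postn*, *Spp1*, *Thbs1*, *Thbs2* and *Sparc*) and 0 lower, against 9.52% and 17% of 11434 genes. The median log2 difference of the 9 genes was 1.87 in tdTomato+EGFP+ cells (0.90 to 2.39 over the 4 plate pairs) and 1.63 in tdTomato-EGFP+ cells (0.99 to 2.24), beside medians of -0.59 and -0.20 over all genes measured. The share of all genes called depends on the scaling: with edgeR TMM factors the median over all genes was 0.07 in both comparisons, 21.6% were called higher and 17.8% lower in the former, 14.4% and 10.9% in the latter, while the group gave 7 and 2, and 7 and 0, *Fn1* being the addition. Without plate 211, which leaves the shallow cells of plate 215, 3 calls were lost in tdTomato+EGFP+ cells, *Postn* at 0.59, *Sparc* at 0.83 and *Fn1* at 0.96.

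**Figure D1:**
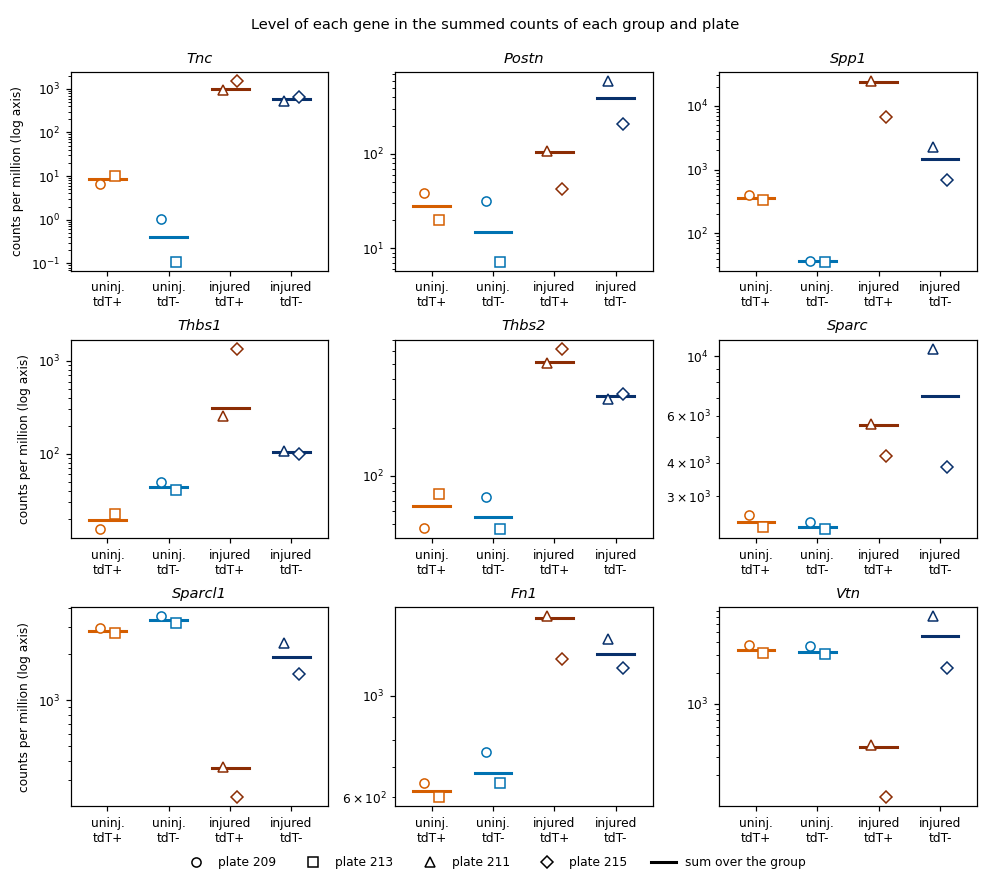
CPM (log axis) of each gene in the 4 groups (uninj., uninjured; tdT+ and tdT-, tdTomato+EGFP+ and tdTomato-EGFP+ cells). Lines are the sum over a group and symbols its plates. *Tnc* lay at 8.54 and 0.409 CPM in uninjured groups and at 990.4 and 579 CPM after injury, and *Vtn* was low in injured tdTomato+EGFP+ cells alone.

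*Tnc*, which encodes the de-adhesive hexameric protein tenascin-C, was close to absent in uninjured cells. In uninjured tdTomato+EGFP+ cells it was at 8.54 CPM (95% Poisson interval 7.64 to 9.52, which like all intervals here covers counting error only), with 6.59 and 9.94 on the plates, and 1 cell held 62.2% of its 328 counts. In uninjured tdTomato-EGFP+ cells 11 counts gave 0.409 CPM (0.204 to 0.732). After injury it reached 990.4 CPM in tdTomato+EGFP+ cells (960 on plate 211 and 1525 on plate 215) and 579 CPM in tdTomato-EGFP+ cells (516 and 637). All injured plates lay above all uninjured plates, and the injury differences were 6.70 (6.46 to 7.65 over plate pairs) and 8.69 (7.98 to 9.17) on the log2 scale. The cells differed in how evenly they carried it. After thinning each cell to 20000 counts, *Tnc* had a count in 83.0% of 100 injured tdTomato+EGFP+ cells (exact binomial interval 74.2 to 89.8) but in 49.0% of 102 injured tdTomato-EGFP+ cells (39.0 to 59.1), against 4.72% and 3.26% in uninjured cells. The median injured cell held 749 CPM in the first population and 21.8 CPM in the second, whose upper quartile was 782 CPM.

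*Postn*, a collagen-binding protein of healing and fibrotic tissue, had its highest level in the other population. It was at 27.8 CPM (39.0 and 19.8 on the plates) and 15.1 CPM (31.6 and 7.23) in uninjured tdTomato+EGFP+ and tdTomato-EGFP+ cells, and at 105 CPM (108 and 42.3) and 392 CPM (595 and 208) after injury. The uninjured plates overlap each other, and plate 215 of the injured tdTomato+EGFP+ cells lay only just above the highest uninjured plate. The injury difference was 1.87 in tdTomato+EGFP+ cells (0.12 to 2.39) and 4.61 in tdTomato-EGFP+ cells (2.68 to 6.18). In the thinned cells, 30.0% of injured tdTomato+EGFP+ and 52.0% of injured tdTomato-EGFP+ cells had a count, and 1 cell held 40.8% of the counts of the former group. *Tnc* and *Postn* were detected together in 26 of the 100 and in 32 of the 102 injured cells, whereas among uninjured cells 0 of 127 and 1 of 92 had both. Such counts depend on the share of each gene alone. Spearman's rho between *Tnc* and *Postn* was 0.10 and 0.32 across the injured cells.

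*Spp1* encodes osteopontin, an integrin and CD44 ligand that macrophages and mineralizing cells also secrete. It was at 364.5 CPM (405 and 335 on the plates) in the tdTomato+EGFP+ cells of uninjured cord and at 36.7 CPM (37.5 and 36.3) in the tdTomato-EGFP+ cells. After injury it reached 23594 CPM (24552 on plate 211 and 6764 on plate 215) and 1444 CPM (2268 and 696). The 4 groups did not overlap over their plates. The injury difference was 6.01 in tdTomato+EGFP+ cells (4.06 to 6.19) and 5.26 in tdTomato-EGFP+ cells (4.18 to 5.93). In the sums the tdTomato+EGFP+ cells stood above the tdTomato-EGFP+ cells both without and with injury. The median uninjured cell of at least 20000 counts went the other way, at 6.99 and 15.7 CPM. In single cells of at least 20000 counts, levels in injured tdTomato+EGFP+ cells ran from 15.3 to 175878 CPM with a median of 8052 CPM, and 46 of 100 cells exceeded 10000 CPM. In injured tdTomato-EGFP+ cells the median was 69.8 CPM, and 6 of 102 cells exceeded 10000 CPM. The 7 myeloid markers summed to 76.2, 48.5, 19.2 and 40.6 CPM in the 4 groups in the order given above, *Ptprc* (CD45) was at 0.450 CPM in injured tdTomato+EGFP+ cells, and the myeloid sum was lower after injury in both populations. In tdTomato-EGFP+ cells the plates overlap, with 73.4 and 36.7 CPM before and 20.7 and 58.8 CPM after injury. The part of myeloid cells in the *Spp1* levels was not tested.

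**Figure D2:**
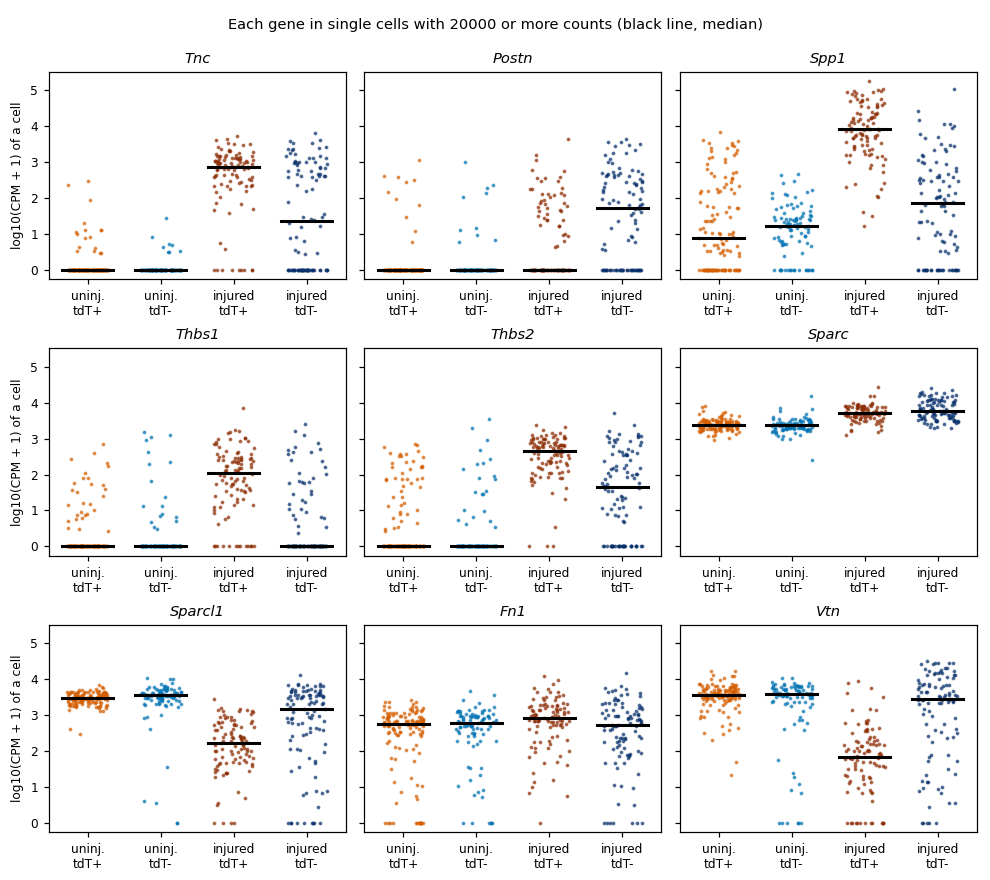
Level of each gene in single cells with 20000 or more counts, as log10(CPM + 1), by group, with 1 point a cell and the median as a black line. *Sparc* had counts in every cell shown, whereas *Tnc*, *Thbs1* and *Thbs2* were at 0 in most uninjured cells and above 0 in most injured tdTomato+EGFP+ cells.

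The thrombospondins, trimeric proteins that bind CD36 and CD47, activate latent TGFβ (*Thbs1*) and inhibit angiogenesis, separated the populations in unlike ways. *Thbs1* was at 19.5 CPM (15.4 and 22.4 on the plates) in the tdTomato+EGFP+ and 43.7 CPM (49.9 and 40.8) in the tdTomato-EGFP+ cells of uninjured cord, and at 312 CPM (253 and 1358) and 104 CPM (107 and 100.4) after injury. In the sums, the population with less *Thbs1* before injury thus held more after it, with injury differences of 3.94 (3.44 to 6.38) and 1.23 (0.99 to 1.37). The order before injury rests on few cells, as the median cell of at least 20000 counts was at 0 CPM in both populations. On plates 209 and 213, 1 cell held 55.1% and 51.9% of the tdTomato+EGFP+ and 52.7% and 58.2% of the tdTomato-EGFP+ counts. Without the top cell of each uninjured group the sums kept that order, at 12.92 and 28.01 CPM. At full depth the shares of cells with a count went the other way, at 22.6% and 18.9%. On plate 215, 1 tdTomato+EGFP+ cell held 77.1% of the *Thbs1* counts, and the plate was at 366 CPM without it. In tdTomato-EGFP+ cells the difference was 0.74 when each cell's own CPM was averaged, which ends the call. *Thbs2* was at 64.7 CPM (47.1 and 77.3) and 55.3 CPM (74.2 and 46.4) before injury, where the plates of the populations overlap, and at 514 CPM (508 and 623) and 313 CPM (301 and 324) after it. Its injury differences were 2.97 (2.70 to 3.70) and 2.48 (2.01 to 2.78). Counts of *Thbs2* were found in 92.0% and 54.9% of the thinned injured cells, and counts of *Thbs1* in 72 of 100 and 23 of 102, so *Thbs1* was absent from most injured tdTomato-EGFP+ cells at this depth. After injury, both were detected in 65 of 100 tdTomato+EGFP+ and 16 of 102 tdTomato-EGFP+ cells, counts that also depend on the share of each gene alone. Spearman's rho between *Thbs1* and *Thbs2* was 0.03 and 0.35 across these cells.

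*Sparc*, a collagen-binding protein of basement membranes, was the most evenly spread of the group, with a count in 100% of the thinned cells of every group. Its sums were 2399 CPM (2544 and 2294 on the plates) and 2302 CPM (2397 and 2257) before injury, and 5536 CPM (5609 and 4259) and 7122 CPM (10705 and 3869.8) after it. All injured plates lay above all uninjured ones, by a difference of 1.21 in tdTomato+EGFP+ cells (0.74 to 1.29) and 1.63 in tdTomato-EGFP+ cells (0.69 to 2.24). The call in tdTomato-EGFP+ cells also rests on plate 211, without which the difference was 0.75. *Fn1* was at 619 CPM (643 and 601) and 679 CPM (752 and 645) before injury and at 1477 CPM (1492 and 1204) and 1236 CPM (1328 and 1152) after it. Its difference of 1.25 in tdTomato+EGFP+ cells (0.90 to 1.31) was called, and its difference of 0.86 in tdTomato-EGFP+ cells (0.62 to 1.04) was not, although all 4 plate pairs were above 0. The median cell of at least 20000 counts went from 573 to 847 CPM of *Fn1* in tdTomato+EGFP+ cells. In tdTomato-EGFP+ cells it went the other way, from 604 to 516 CPM. There the share of thinned cells with an *Fn1* count was 83.7% before and 82.4% after injury.

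*Sparcl1* and *Vtn* were the abundant genes of the uninjured cells. *Sparcl1* was at 2846 CPM (2969 and 2758 on the plates) and 3334 CPM (3554 and 3229.6) before injury, and at 358 CPM (365 and 231) and 1905 CPM (2381 and 1474) after it. The injury difference was -2.99 in tdTomato+EGFP+ cells (-3.68 to -2.92) and -0.81 in tdTomato-EGFP+ cells (-1.27 to -0.44), the latter not called. *Vtn* was at 3375 CPM (3744 and 3109) and 3243 CPM (3642 and 3055) before injury, and at 379 CPM (394 and 123) and 4586 CPM (7174 and 2237) after it. The difference was -3.15 in tdTomato+EGFP+ cells (-4.91 to -2.98) and 0.50 in tdTomato-EGFP+ cells, where plate 211 lay above and plate 215 below both uninjured plates (-0.70 to 1.23). Without plate 211 the *Vtn* difference in tdTomato-EGFP+ cells was -0.54 and that of *Sparcl1* -1.18, and without plate 215 that of *Vtn* was 1.15. The median injured tdTomato+EGFP+ cell held 68.0 CPM of *Vtn*, against 3669 CPM in the median uninjured one and 2726 CPM in the median injured tdTomato-EGFP+ cell. Markers of other cells also differed between the groups. The 5 endothelial markers summed to 3635, 3947, 345 and 1423 CPM in the 4 groups and the 6 astrocyte markers to 108, 312, 29.3 and 14.7 CPM. Both sums were lower after injury in both populations. *Vtn* had a higher sum in injured than in uninjured tdTomato-EGFP+ cells, but its median cell there went from 3792 to 2726 CPM. The part of such other cells in the results was not tested.

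**Figure D3:**
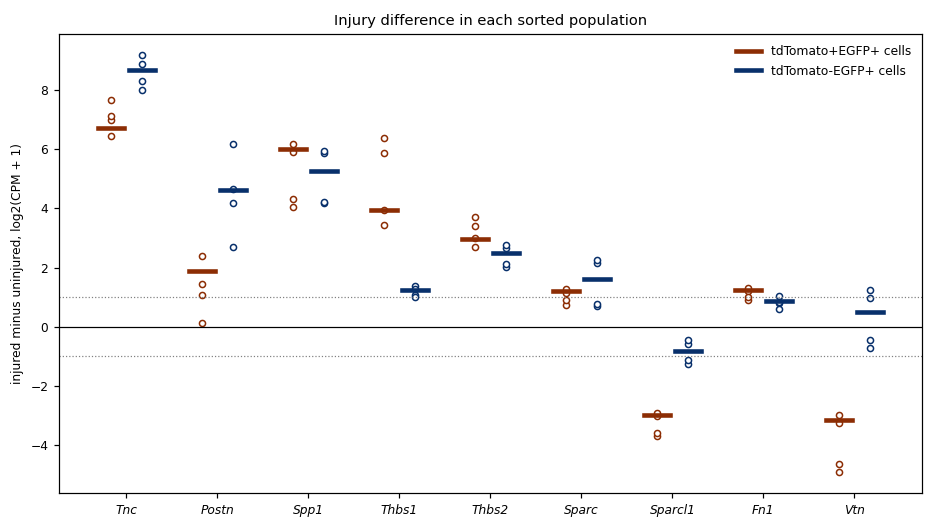
Injured minus uninjured difference of log2(CPM + 1) for each gene in each sorted population. Thick lines are the group sums, circles the 4 plate pairs and dotted lines the fold of the call. The sums of *Vtn* went opposite ways in the populations, -3.15 and 0.50, with circles on both sides of 0 in tdTomato-EGFP+ cells.

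The sorted populations were compared in the sums, with the value within each plate beside them. In uninjured cord 8 of the 9 genes reached 10 CPM, and of these 1 was called higher in tdTomato+EGFP+ cells (*Spp1*, 3.28, with 3.40 and 3.17 on the plates) and 1 lower (*Thbs1*, -1.13, with -1.64 and -0.83), against 4.31% higher and 3.61% lower of 11198 genes. *Tnc*, under 10 CPM in both populations, differed by 2.76 (1.89 and 3.30 on the plates) and was called higher when the limit was 1 CPM. On plates 209 and 213, 1 tdTomato+EGFP+ cell held 75.5% and 91.9% of the *Tnc* counts, and the plates were at 1.65 and 0.839 CPM without it. *Sparc*, *Sparcl1*, *Fn1* and *Vtn* differed by 0.06, -0.23, -0.13 and 0.06. The *Spp1* call rests on some of the cells: the median uninjured tdTomato+EGFP+ cell held 6.99 CPM and the median tdTomato-EGFP+ cell 15.7 CPM, while 16 of 127 and 0 of 92 cells exceeded 1000 CPM. Averaged over each cell's own CPM, shallow cells included, the *Spp1* difference was -0.12. The *Thbs1* call rests on plate 209, without which the difference was -0.83, and vSMC-like cells of cluster 7 held 86.0% of the *Thbs1* counts of uninjured tdTomato-EGFP+ cells. At 3 days after injury, 2 genes were called higher in tdTomato+EGFP+ cells (*Spp1*, 4.03, and *Thbs1*, 1.58) and 3 lower (*Vtn*, -3.59, *Sparcl1*, -2.41, and *Postn*, -1.90), against 4.31% and 17.9% of 10631 genes. The plate values were 3.44 and 3.28 for *Spp1*, 1.23 and 3.74 for *Thbs1*, -4.18 and -4.17 for *Vtn*, -2.70 and -2.67 for *Sparcl1* and -2.45 and -2.27 for *Postn*. For *Spp1*, *Vtn*, *Sparcl1* and *Postn* the sums lay outside both plate values, as plate 211 holds 94.6% of the counts of the tdTomato+EGFP+ cells and 47.6% of those of the tdTomato-EGFP+ cells. With TMM factors 4 were called higher, *Tnc* and *Thbs2* being added, and 8.87% and 11.3% of all genes were called. The median differences of the 9 genes were 0.06 and 0.26, beside 0.01 and -0.32 over all genes.

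The injury differences of the populations were then set against each other, tdTomato+EGFP+ minus tdTomato-EGFP+. Of the 9 genes, 1 was called higher (*Thbs1*, 2.71, with 2.06 to 5.38 over the plate pairs), against 4.57% of 12081 genes, and 4 were called lower, against 20.6%. The latter were *Vtn* (-3.65, -4.22 to -4.19), *Postn* (-2.74, -3.78 to -2.57), *Sparcl1* (-2.18, -2.48 to -2.41) and *Tnc* (-1.99, -2.41 to -0.64). The value of *Tnc* divides by the 11 counts of uninjured tdTomato-EGFP+ cells and was -0.07 with a pseudocount of 10 CPM. For *Spp1* the value was 0.75 in the sums and -0.12 to 0.26 over plate pairs, since the populations draw unlike shares of their counts from plate 211. It was called higher under 5 of 13 alternatives, with 1.15 (TMM), 1.33 (DESeq2 factors), 1.02 (pseudocount of 10 CPM), 1.06 (no *Pecam1* removal) and 3.29 (mean of each cell's own CPM). Without plate 211 the value of *Thbs1* was 4.87, which rests on plate 215, where 1 tdTomato+EGFP+ cell held 77.1% of the *Thbs1* counts. With TMM factors 9.40% of all genes were called higher and 12.9% lower, and of the 9 genes 2 and 4. The median over the 9 genes was -0.42, beside -0.39 over all genes.

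Cells were also compared within clusters made without the 9 genes. Cluster 3 (71 cells) was perivascular fibroblast-like, with 9 of 9 markers raised, clusters 4 (48 cells) and 6 (30 cells) were pericyte-like, with 6 and 8 of 9 raised, and cluster 7 (18 cells) was vSMC-like, with 5 of 7 raised. Cluster 1 (136 cells, 99 of them injured tdTomato+EGFP+) had all 6 cycling markers and 6 of 9 perivascular fibroblast markers raised and was left unnamed, as were clusters 2 and 5, whose leading genes were endothelial. Cluster 2 (122 cells, 62 and 53 of them uninjured tdTomato+EGFP+ and tdTomato-EGFP+) had 8 of 9 pericyte and 5 of 5 endothelial markers raised. The levels depend on the clustering: of 63 values by cluster, 61 moved by more than their counting interval at resolution 0.3 and 47 when the cells' gene number, mitochondrial and ribosomal shares were not regressed out. *Spp1* differed between the sorted populations within the same cluster. In fibroblast-like cluster 3 26 uninjured tdTomato+EGFP+ cells had 1367 CPM and 19 injured ones had 35684 CPM (35517 to 35851), but the level was 141 CPM (130 to 152) in 18 injured tdTomato-EGFP+ cells, of which the plates gave 142 and 140.2 CPM. In cluster 1 it was at 21668 CPM in injured cells of the tdTomato+EGFP+ sort and 850 CPM in those of the tdTomato-EGFP+ sort. The gap there was wide on plate 211 (22544 and 288 CPM) and narrower on plate 215 (6404 and 1346 CPM). Of the *Spp1* counts of uninjured tdTomato+EGFP+ cells, 86.2% lay in cluster 3, which held 26 of the 137 cells.

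*Tnc* in injured tdTomato-EGFP+ cells lay mostly in pericyte-like cluster 4, which held 45.6% of the cells, 74.6% of the *Tnc*, 70.0% of the *Postn* and 86.2% of the *Spp1* counts. Its 47 cells had *Tnc* at 1002 CPM in the sum, near the 1109 CPM of injured tdTomato+EGFP+ cells in cluster 1. Per cell these were less alike, with medians of 460 and 951 CPM and a count in 72.3% and 91.9% of cells. Fibroblast-like cluster 3 had *Tnc* at 36.7 CPM in injured tdTomato-EGFP+ and 375 CPM in injured tdTomato+EGFP+ cells. *Fn1* and *Thbs2* lay elsewhere in injured tdTomato-EGFP+ cells: cluster 3 held 44.2% of the *Fn1* and 55.8% of the *Thbs2* counts with 17.5% of the cells, at 2903 and 930.1 CPM, against 292 and 80.3 CPM in cluster 4. In the same cells *Vtn* was at 5856 CPM in cluster 4, which has no uninjured cell, and at 120 CPM in cluster 3. Within cluster 3, uninjured and injured tdTomato+EGFP+ cells differed in the same direction as the whole groups for *Spp1*, *Tnc* (33.4 and 375 CPM), *Fn1* (399 and 1791 CPM), *Sparcl1* (2171 and 796 CPM) and *Vtn* (1276 and 411 CPM). *Thbs1* (63.3 and 80.0 CPM) and *Postn* (41.5 and 55.9 CPM) were close in the sums of cluster 3 and did not keep one direction over plates. *Thbs1* was at 28.4 and 80.3 CPM on the uninjured plates and 49.3 CPM on plate 211, and *Postn* at 127, 0 and 48.2 CPM, its uninjured counts coming from 1 cell. Cluster 3 of injured tdTomato+EGFP+ cells rests almost wholly on plate 211, with 15 of 19 cells.

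**Figure D4:**
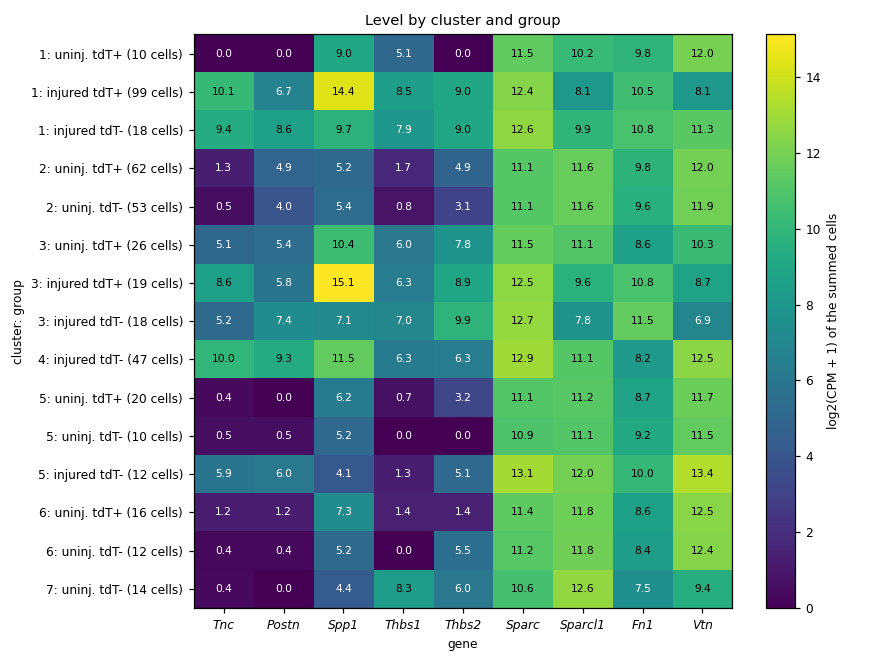
Level of each gene as log2(CPM + 1) in the summed cells of each cluster and group with 10 or more cells, higher in lighter colour. *Spp1* reached 14.4 and 15.1 in injured tdTomato+EGFP+ cells of clusters 1 and 3. *Tnc* was high in injured cells of both cluster 1 and cluster 4, and *Postn* was highest in cluster 4.

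Across single cells of 20000 or more counts, few of the 36 pairs of genes went together in all 4 groups. Spearman's rho between *Sparcl1* and *Vtn* was 0.60 and 0.22 in uninjured tdTomato+EGFP+ (127 cells) and tdTomato-EGFP+ (92 cells), and 0.45 and 0.81 in injured cells (100 and 102 cells). *Thbs1* and *Vtn* went against each other, with -0.25 and -0.24 before and -0.43 in both injured groups. *Tnc* and *Spp1* had a rho of 0.51 in injured tdTomato-EGFP+ and -0.23 in injured tdTomato+EGFP+ cells, and *Sparc* and *Postn* had 0.48 and 0.26. Cells share libraries and depth, and rho with cell depth was -0.55 to -0.16 for *Vtn* and 0.03 to 0.13 for *Tnc*, so these values are descriptions.

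**Figure D5:**
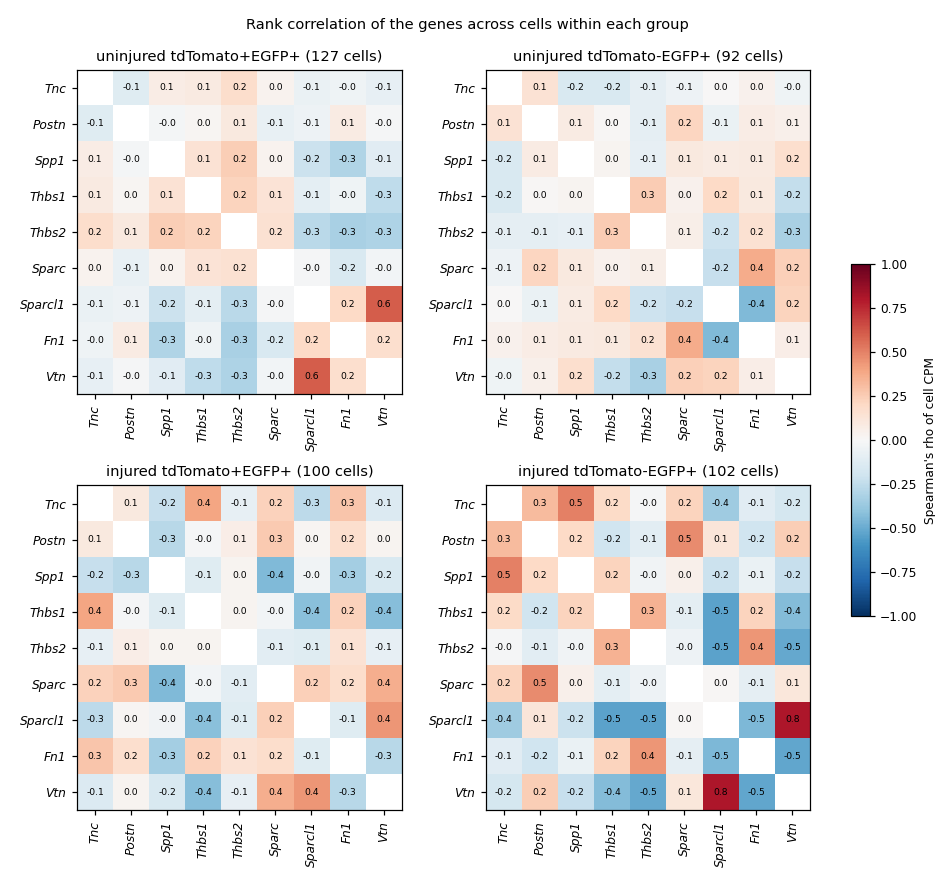
Spearman's rho of CPM between the genes across the cells of each group, red above and blue below 0. The pair *Sparcl1* and *Vtn* was positive in every group, from 0.22 to 0.81.

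Among up to 10994 genes counted in 20% or more of cells in at least 2 groups, the nearest to *Vtn* were the pericyte genes *Higd1b* (mean rho 0.76 over 3 groups) and *Kcnj8* (0.69 over 4 groups), with *Art3* (0.70) between them. *Tnc* lay nearest to *Rtn4* (0.65), *Loxl2* (0.61) and *Itga5* (0.58), the last a fibronectin receptor subunit. *Spp1* lay nearest to *Hsd11b1* (0.57), *Lama1* (0.55) and *Il33* (0.50), and *Thbs1* to *Inhba* (0.49) and *Ccn4* (0.48). *Thbs2* lay nearest to *Lox* (0.47), *Cyp1b1* (0.47) and *Igf1* (0.46), and *Fn1* to *Apol7d* (0.76), *Pdlim4* (0.58) and *Inhba* (0.54). *Sparc* lay nearest to *Serpinh1* (0.44), a collagen chaperone, *Sept9* (0.41) and *Postn* (0.37), and *Sparcl1* to *Vtn* (0.52), *Mfge8* (0.50) and *Gper1* (0.49). *Sept9* is a symbol that plate 211 alone uses, without counts on the other plates. Its rho therefore also follows the plate and cannot be read as likeness to *Sparc*. *Postn* had the lowest values, with *Tpm4* (0.38), *Wdr1* (0.38) and *Sparc* (0.37).

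Of 19 other matricellular genes, 11 were measured for injury in tdTomato+EGFP+ cells, with 5 called higher and 3 lower, and 15 in tdTomato-EGFP+ cells, with 9 higher and 2 lower. *Ccn4* (WISP1) was called higher in both (4.37 and 4.16). With it, the largest differences were those of *Fstl1* in tdTomato+EGFP+ cells (2.79) and *Smoc1* in tdTomato-EGFP+ cells (4.29). *Fstl1* was not particular to the former, as it went from 562 to 2474 CPM in tdTomato-EGFP+ cells. *Smoc1* was at 2.00 and 4.82 CPM in uninjured and injured tdTomato+EGFP+ cells, under the limit of 10 CPM. *Spock2* (-5.62 and -2.23) and *Ccn3* (-5.01 and -1.10) were called lower in both. The sort called 1 of 12 higher and 2 lower in uninjured cells and 1 of 14 higher and 6 lower after injury. *Tgfbi*, an integrin-binding matrix protein, was higher in tdTomato+EGFP+ cells both times (2.63 and 2.30), and *Comp* (thrombospondin-5, -1.24 and -6.51) and *Ccn5* (-4.36 and -6.20) were lower. The difference of the injury effects called 0 of 15 higher and 9 lower. Beside these counts and those of the receptors, the shares of all genes called higher and lower for injury were 10.8% and 34.3% in the tdTomato+EGFP+ sort, against 9.52% and 17% in the tdTomato-EGFP+ sort. They were 4.31% and 3.61% for the sort before injury, 4.31% and 17.9% after it, and 4.57% and 20.6% for the difference.

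Of 18 receptors and binding partners, 16 were measured for injury in each population. In tdTomato+EGFP+ cells 7 were called higher and 4 lower, and in tdTomato-EGFP+ cells 6 and 2. *Cd44*, the hyaluronan and osteopontin receptor, was higher in both (4.20 and 3.61), from 9.43 to 191 CPM and from 9.37 to 126 CPM. The proteoglycan gene *Sdc1* had the next largest difference in tdTomato-EGFP+ cells (3.58). The integrin subunit genes *Itga4* (-3.49) and *Itga3* (-2.98) were lower in tdTomato+EGFP+ cells, and *Itga8* (-2.32) and *Itga9* (-1.36) in tdTomato-EGFP+ cells. The sort called 3 of 14 higher and 0 lower in uninjured cells, with *Sdc1* (1.43) and *Itga3* (1.05) the largest. After injury it called 3 of 15 higher and 2 lower, with *Itgb8* (3.16) and *Itga8* (2.27) against *Itga4* (-3.98) and *Itgb5* (-1.55). The difference of the injury effects called 3 of 17 each way, with *Itga8* (3.22) and *Sdc4* (1.63) against *Itga4* (-3.26) and *Itga3* (-2.00).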

How the data were processed

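The authors deposited whole-number counts per gene and cell, aligned to mouse (mm10 per the labels). The aligner, the annotation and the thing counted (reads or molecules) are not given in the sources used here. The columns of 503 labelled cells were used, and 1465 other columns were not. Day 3 follows the labels, while the series text says day 5. Cells were kept with 200 or more genes and under 20% mitochondrial counts, and 34 cells were removed for *Pecam1* above 1 on the ln(1 + counts per 10000) scale and above *Pdgfrb*, which left 468. A limit of at most 1200 genes, as the study states, would leave 33 cells and was used as an alternative only. Cells of a group were summed (Python 3.11.15). Clusters came from Seurat 5.3.0 (R 4.3.3), at resolution 0.5, with the 9 genes kept out. Markers were called raised in a cluster when found in at least 50% of its cells and above the remaining cells by at least 0.5 (log2). Cells were thinned to 20000 counts for shares, which left out 47 shallower cells. Alternatives were edgeR 4.0.16 TMM and DESeq2 1.42.0 size factors, a pseudocount of 10 CPM, means of cells, filters, clusterings and leaving out plates or top cells. One more, without the symbols particular to plate 211, was added after seeing the data. Named besides the 9 genes are the 3 genes with the highest mean rho to each, mitochondrial, ribosomal protein and unnamed genes left out, and the 2 called genes of the lists with the largest difference each way, and some genes that this rule names are not reported here. The genes and lists were chosen with earlier results of these data known. Cells were sorted singly into wells, but doublets were not called, so attached cells in a well would not have been seen.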

Additional observations from a re-analysis of the deposited data

How the results depend on the processing

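The median difference of the 9 genes was 0.0484 (TMM), 0.0129 (DESeq2 factors), -0.12 (mean of cells), 0.0308 (limit of 1200 genes) and 0.0764 (without the top cell of each group) for the sort in uninjured cells. It was 0.64, 0.78 and 0.30 (TMM, DESeq2, mean of cells) for the sort after injury, 2.67 (DESeq2) and 2.96 (limit of 1200 genes) for injury in tdTomato+EGFP+ cells, and 0.15 (DESeq2) for the difference of the injury effects, which changed sign. Leaving out each plate in turn gave 0.0254 to 0.0592, 0.14 to 0.26, 0.96 to 2.35 and 1.18 to 2.22 for both sorts and both injuries, and -0.99 to 0.00063 for the difference. The uninjured sort called 1 gene with a pseudocount of 10 CPM and 1 with the mean of cells. In uninjured cells the *Spp1* difference turned to -0.12 (mean of cells) and -1.34 (limit of 1200 genes, 10 and 13 cells), and that of *Thbs1* to 0.22 under that limit. The limit leaves 0 injured tdTomato-EGFP+ cells, so comparisons with them have no value there. Without the symbols particular to plate 211 the calls were 7 higher and 2 lower, and 6 and 0, for injury. For *Tnc* the call on the difference of the injury effects was lost with DESeq2 factors, a pseudocount of 10 CPM and without the top cells. Resolution 0.3 gave 3 clusters and moved 61 of 63 values by cluster, clustering without regression moved 47, and the cause of each change was not tested. No paired test was run because each group is 1 sample, and the values of both sorts on the same plate stand beside the sums.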
